A study of Mus musculus with 11 samples.

Results

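The comparison set 3 clonal, long-term cultured control (Ctrl) populations of mouse embryonic stem cells (mESC) against 2 early Ctrl populations, by low-coverage whole-genome sequencing (WGS) of bulk genomic DNA. Its members were chosen by their labels alone: Ctrl long-term 1 to 3 on one side, Ctrl pre-treatment 1 and Ctrl acute 1 on the other, 5 of the 11 libraries of the series. Ctrl cells carried Cre/ERT2, a Cre recombinase activated by tamoxifen, and Rosa26-LSL-H2b-Egfp, a histone-GFP reporter switched on by Cre. No Tet allele was floxed in them. The pre-treatment population had not been activated. The acute population received 1 µM tamoxifen for 2.5 days and was cultured for 4 more days. The long-term populations had received the same tamoxifen treatment, were monoclonal and were kept in culture for 30 days. The study used the same stages to follow cells in which Tet1, Tet2 and Tet3 were deleted by the same system (Tet iTKO, 5 libraries), beside 1 library of mESC with germline loss of Dnmt1, Dnmt3a and Dnmt3b (Dnmt TKO). All populations were grown in 2i medium on mouse embryonic fibroblast feeders, and Ctrl and Tet iTKO cells were sorted, per the labels, as live CD326+, GFP+ and Thy1.2- cells, a gate given also for the pre-treatment sample in which the reporter had not been activated. Dnmt TKO cells were sorted without the GFP gate. Each early stage was 1 library, and every clone was 1 library, so p-values speak for these libraries only.

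Read depth along the genome follows the number of copies of each region. In bulk DNA, a region present in more copies per cell and a region gained in more of the cells cannot be told apart. Copy number in mouse differs most in segmental duplications and tandem gene families, such as homeobox, olfactory, vomeronasal and natural killer receptor clusters, where near-identical copies recombine with each other. Such regions differ between laboratory strains and also change in cultured lines, and short reads from one copy can be placed on another.

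Promoter sequences of genes in the differing regions show this contrast in the reference itself. They are shown for a homeobox gene, a testis gene and a nucleotidase gene in multicopy sequence, and for one gene in single-copy sequence. Each runs 5′ to 3′ on the gene's strand from 250 bases before to 50 bases after the start (RefSeq, GRCm38.p6). Capitals mark bases covered by a 50-base word that occurs at more than 1 place in the genome, on either strand. Cphx1 lies on the plus strand at chr14:25942294-25942593, Speer4e on the minus strand at chr5:14938426-14938725, Entpd4b on the plus strand at chr14:69555151-69555450 and Ide on the minus strand at chr19:37334495-37334794.
Cphx1: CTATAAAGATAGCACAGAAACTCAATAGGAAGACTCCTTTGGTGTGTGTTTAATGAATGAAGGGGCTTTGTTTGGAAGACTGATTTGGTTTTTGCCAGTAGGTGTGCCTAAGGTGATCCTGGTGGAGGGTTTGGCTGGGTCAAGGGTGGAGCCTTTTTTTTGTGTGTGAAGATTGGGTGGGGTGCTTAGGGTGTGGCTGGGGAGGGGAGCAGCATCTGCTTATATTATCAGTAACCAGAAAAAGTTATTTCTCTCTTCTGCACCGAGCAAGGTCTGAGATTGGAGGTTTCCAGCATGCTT
Speer4e: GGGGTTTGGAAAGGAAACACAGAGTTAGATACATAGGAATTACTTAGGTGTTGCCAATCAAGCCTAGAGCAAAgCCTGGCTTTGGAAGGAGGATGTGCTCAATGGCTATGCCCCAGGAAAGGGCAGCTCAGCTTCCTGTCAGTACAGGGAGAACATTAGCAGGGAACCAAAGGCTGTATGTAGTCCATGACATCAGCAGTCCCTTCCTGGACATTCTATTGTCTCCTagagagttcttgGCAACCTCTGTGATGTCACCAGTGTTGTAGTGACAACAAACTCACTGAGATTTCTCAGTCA
Entpd4b: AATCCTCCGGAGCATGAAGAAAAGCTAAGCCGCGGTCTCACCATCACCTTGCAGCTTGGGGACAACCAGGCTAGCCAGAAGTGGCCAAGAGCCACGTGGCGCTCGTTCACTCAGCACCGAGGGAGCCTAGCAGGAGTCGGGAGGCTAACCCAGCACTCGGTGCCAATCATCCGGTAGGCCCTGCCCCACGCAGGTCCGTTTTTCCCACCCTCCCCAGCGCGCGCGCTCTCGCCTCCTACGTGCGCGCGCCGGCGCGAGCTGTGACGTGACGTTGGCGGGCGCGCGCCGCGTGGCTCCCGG
Ide: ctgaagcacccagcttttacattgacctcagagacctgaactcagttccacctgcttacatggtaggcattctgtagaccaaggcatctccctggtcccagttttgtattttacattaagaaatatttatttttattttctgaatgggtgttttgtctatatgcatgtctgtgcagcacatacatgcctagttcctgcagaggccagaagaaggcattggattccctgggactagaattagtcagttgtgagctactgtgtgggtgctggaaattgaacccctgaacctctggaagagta
All 251 words of the Cphx1 promoter occurred at 3 places, those of Cphx1, Cphx2 and Cphx3, and the Cphx2 promoter shared a run of 296 bases with it. All 251 words of the Entpd4b promoter occurred at 2 places. At Speer4e, 140 of 251 words occurred more than once, with up to 20 placements. Every word of the Ide promoter occurred once, so that a read from there had a single exact match.

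The Ctrl libraries held 555 to 812 Mb of mapped bases, a median autosomal depth of 0.215 to 0.315, or 215 to 315 reads per 50 kb bin if a read is counted as 50 bases. Relative depth is the depth of a bin divided by the median autosomal bin of its library, so that a region with the usual copy number sits near 1. It is given here before, and log2 differences after, a correction for GC content. The libraries stood apart by stage on the Y chromosome before any other comparison. Median relative depth over its 1764 bins was 0.470, 0.463 and 0.464 in long-term 1 to 3, against 0.0269 in the pre-treatment and 0.0314 in the acute library. The labels give neither a sex nor a cell line. The names of the deposited tables carry a letter that the labels do not explain, F for every early and M for every long-term library, Tet iTKO included, and M for Dnmt TKO. Therefore a difference of culture stage and a difference between starting lines cannot be told apart in any comparison below.

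Against this background, few regions differed. Of 47907 autosomal bins tested, 68 (0.142%) were called (limma, Benjamini-Hochberg adjusted p under 0.05), 48 of them (0.1%) higher and 20 (0.0417%) lower in long-term Ctrl. In all 68 the 3 long-term and the 2 early libraries did not overlap, which was the case in 20.3% of all tested bins. Unadjusted p was under 0.05 in 2547 bins, 5.32% of those tested. The called differences had a median size of 0.46 on the log2 scale and ranged from 0.33 to 1.20, with standard errors of 0.0813 to 0.0823. The median standard error over all tested bins was 0.0815, as limma drew each error mostly from all bins together. The p-values of bins therefore rest mostly on that shared spread, and little on the spread of the libraries in a single bin. Differences over all bins had a median of -0.000199 and a robust standard deviation of 0.0817. Leaving out the pre-treatment library or the acute library reduced the calls to 44 each, of which 37 and 40 were among the 68. In all, 31 of the 68 were called whichever library was left out. When only bins with a mean relative depth between 0.5 and 1.5 were tested, 49 were called and 81.6% of them were higher, against 70.6% of the 68.

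**Figure D1:**
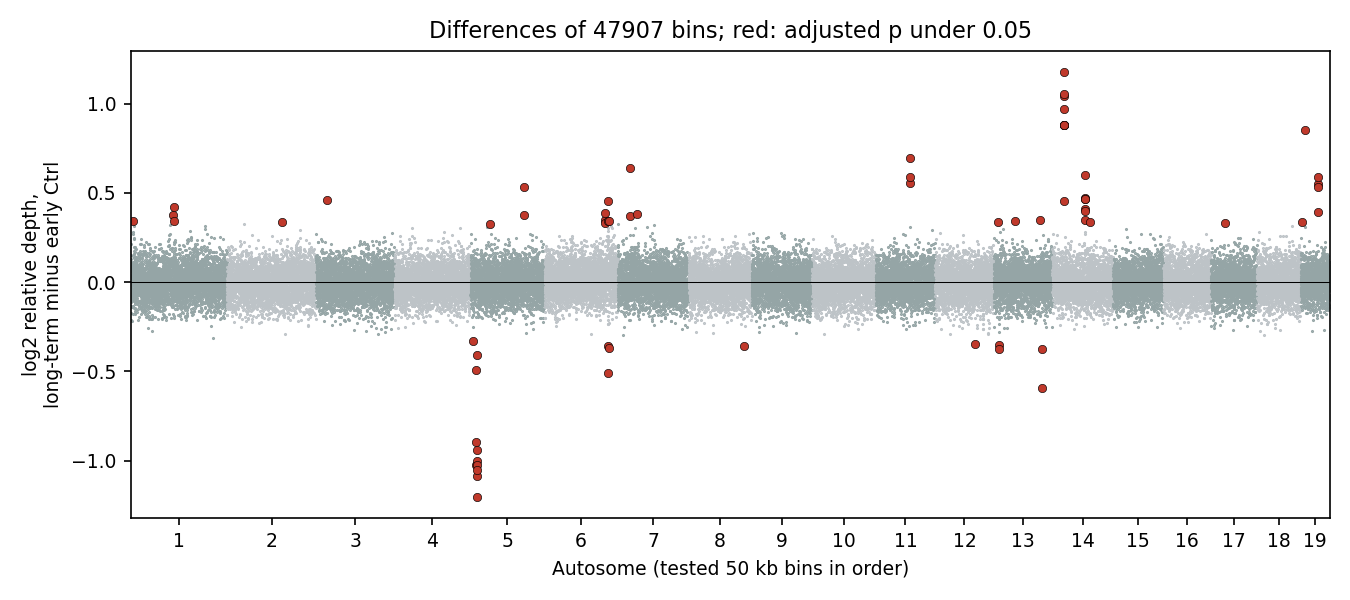
Difference in log2 relative depth, long-term minus early Ctrl (y axis), of the 47907 tested bins in order along the 19 autosomes (x axis). Each point is 1 bin and red points are the 68 called bins, which lie in a few clusters of neighbouring bins, the highest on chromosome 14 and the lowest on chromosome 5.

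The called bins lay on 13 autosomes and gathered in clusters. Chromosome 14 held 17, all higher, chromosome 5 held 14, of which 3 were higher, and chromosome 6 held 9, of which 6 were higher. Called bins of the same sign with at most 1 uncalled bin between them were joined into 31 stretches. Of these, 12 had at least 2 called bins and held 49 of the 68 bins, with 8 stretches higher and 4 lower in long-term Ctrl. The other 19 were single bins.

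The largest increase covered a tandem array of homeobox genes. The stretch on chromosome 14 ran from 25853324 to 26298546 (GRCm38), 445 kb in 9 bins, and overlapped Anxa11, an annexin, and 3 repeated sets of Plac9, Tmem254, Cphx and Duxbl genes. Cphx and Duxbl genes encode homeobox proteins of the early embryo. Its relative depth was 1.35, 1.34 and 1.32 in long-term 1 to 3 (1.33 ± 0.0156, SD, n = 3), against 0.689 in the pre-treatment and 0.745 in the acute library. All long-term libraries lay above both early ones, with a mean log2 difference of 0.91, or 1.88-fold, and adjusted p-values from 3.01e-34 to 8.25e-05 (limma). The bin that holds Duxbl2 differed most among the higher bins. There the long-term libraries read 1.48, 1.39 and 1.48 and the early ones 0.634 and 0.652, a log2 difference of 1.18 ± 0.0814 (SE). The bins of Duxbl1 and Duxbl3 differed by 1.04 and 0.88, so that all 3 Duxbl genes were called higher. Of the 50-base words sampled from this stretch, 93.6% occurred more than once in the genome, so the copy that differed is uncertain.

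The largest decrease covered the Speer4 cluster, a family expressed in the testis. The stretch on chromosome 5 ran from 14862456 to 15757302. Its 10 bins cover 500 kb of the 895 kb span, with a 395 kb interval that holds no bin, and overlap Speer4e, Speer4d, Speer4c and several predicted genes of the same array, from Gm9758 to Gm21149. Relative depth was 1.64 in each of the 3 long-term libraries (SD 0.00114, n = 3) and 3.16 and 3.26 in the pre-treatment and acute libraries. No library overlapped between the groups, and the mean log2 difference was -0.91, early over long-term 1.88-fold, with adjusted p from 3.32e-35 to 0.00125 (limma). The Speer4d bin showed the largest difference of all bins, at 1.71, 1.78 and 1.73 in long-term and 3.95 and 4.09 in early libraries (-1.20 ± 0.0813, SE). The Speer4c bin at the distal end read 1.09, 1.22 and 1.01 against 1.48 and 1.44, a smaller difference of -0.41. Words found more than once made up 59.1% of the stretch. Of 10 Speer genes tested, 3 were called lower and 7 were not called.

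A second higher stretch on chromosome 14 held the Entpd4 pair. It ran from 69264331 to 69614254, 350 kb in 7 bins, with Slc25a37, which imports iron into mitochondria, Synb, which encodes the placental syncytin-B, Entpd4 and Entpd4b, Golgi nucleotidases, and Loxl2, a collagen cross-linking oxidase. Relative depth was 1.00, 0.975 and 0.982 in the long-term libraries (0.986 ± 0.0131, SD, n = 3) and 0.737 and 0.725 in the early ones. The long-term libraries were thus near the autosomal level and the early libraries below it, a mean log2 difference of 0.45, or 1.37-fold (adjusted p 2.74e-09 to 0.0234, limma). Of its words, 99.9% occurred more than once. How reads were placed between these copies was not tested, and the depths do not say which copy differed.

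Stretches on chromosomes 1 and 19 lay in largely single-copy sequence. On chromosome 1, 88197240 to 88347246, the stretch covered 3 bins with the glucuronosyltransferase genes Ugt1a1 and Ugt1a2, Mroh2a, the centromere factor gene Hjurp and Trpm8, which encodes the cold-sensing channel. Only 3.6% of its words occurred more than once. The other Ugt1a genes, from Ugt1a10 to Ugt1a5, reached it with their distal ends alone, and the bin that held most of each was not called (-0.03, adjusted p 0.996, limma). Depth was nonetheless 3.61, 3.41 and 3.52 in long-term libraries (3.52 ± 0.0985, SD, n = 3) and 2.68 and 2.79 in early ones. Thus all 5 libraries were far above the autosomal level, and the long-term ones were higher by 0.38 (1.30-fold, adjusted p 5.19e-04 to 0.0253, limma). Fewer than 2 of these bins stayed called without long-term 1 (mean difference 0.36), the pre-treatment library (0.34) or the acute library (0.42).

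Ide, which encodes the insulin-degrading enzyme, lay in a stretch of chromosome 19, 37223629 to 37373677. Relative depth there was 1.62, 1.69 and 1.69 in long-term (1.66 ± 0.0414, SD, n = 3) and 1.17 and 1.18 in early libraries, a log2 difference of 0.51 (1.42-fold, adjusted p 4.31e-09 to 0.00225, limma). Both groups were above the autosomal level, and 4.4% of the words occurred more than once. A single bin in Btaf1, the gene of a TBP-binding ATPase, lay proximal of it (36923530 to 36973545) and read 1.87, 1.99 and 1.88 against 1.31 and 1.27 (0.55 ± 0.0813, SE, adjusted p 8.06e-08, limma). This bin was named after its values were seen.

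Nlrp1b, an inflammasome sensor gene with alleles that differ between mouse strains, overlapped the proximal bin of a stretch of chromosome 11, 71182006 to 71332007. That bin differed by 0.56. The next bins, at 0.70 and 0.59, held no protein-coding gene. Relative depth was 1.02, 1.01 and 0.976 in long-term libraries (1.00 ± 0.0226, SD, n = 3) and 0.652 and 0.658 in early ones. The early libraries were the low ones, and the groups differed by 0.61 (1.53-fold, adjusted p 9.83e-13 to 6.72e-08, limma). Words found more than once made up 21.6%. The Speer4, Nlrp1b, Duxbl, Entpd4 and Ide stretches were the 5 of 12 that kept at least 2 called bins whichever library was left out and under every other setting tried. With only bins of mean relative depth between 0.5 and 1.5, however, 2 of the 10 Speer4 bins could be tested, and the mean difference over them was -0.45.

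**Figure D2:**
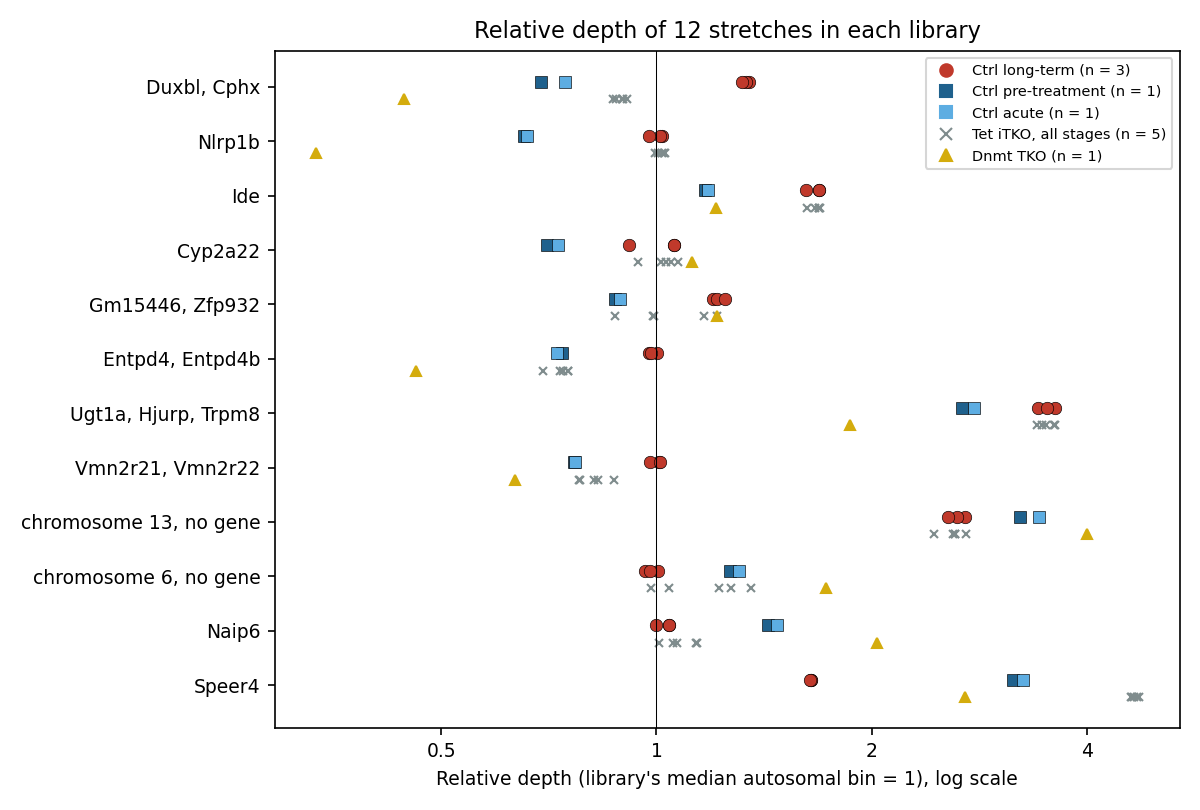
Mean relative depth (x axis, log scale, library's median autosomal bin = 1) of the called bins in each of the 12 stretches (y axis), with 1 point for each library. Long-term and early Ctrl points do not overlap in any stretch, and the Tet iTKO points lie with the long-term Ctrl points in some stretches and nearer the early ones in others.

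None of the remaining stretches kept at least 2 called bins whichever library was left out. Words found more than once made up 33.6% to 99.7% of each, beside a median of 5.6% over all tested bins. Cyp2a22, a cytochrome P450 gene, lay in the distal bin of a stretch of chromosome 7, 26873171 to 26973231 (0.37, adjusted p 0.00891, limma). The proximal bin, with the larger difference (0.64), held no protein-coding gene. The stretch was at 0.915, 1.06 and 1.06 in long-term and 0.703 and 0.729 in early libraries (0.50, adjusted p 9.28e-11 to 0.00891, limma). It fell below 2 called bins without long-term 2, long-term 3, the pre-treatment or the acute library, with mean differences of 0.47, 0.47, 0.48 and 0.53. A stretch of chromosome 6, 123467162 to 123617122, held Vmn2r21 and the proximal end of Vmn2r22, both vomeronasal receptor genes. It read 1.01, 0.98 and 1.01 against 0.766 and 0.768 (0.36, adjusted p 0.00365 to 0.0474, limma). The call on this stretch rested on every library but long-term 2, with mean differences of 0.34 to 0.37 without the others. The bin that held most of Vmn2r22 was not called (0.20, adjusted p 0.853, limma).

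Naip6, an inflammasome receptor gene, was lower in long-term Ctrl, in a stretch of chromosome 13 from 100262684 to 100362594. Relative depth was 1.04, 1.00 and 1.04 in long-term and 1.43 and 1.47 in early libraries (-0.49, adjusted p 3.28e-09 to 0.00621, limma). The proximal bin was lost without long-term 2 or the pre-treatment library, with mean differences over both bins of -0.47 and -0.50. The distal bin stayed called whichever library was left out. Gene-free below means only that no protein-coding gene overlapped, since other types of gene were not examined. A gene-free stretch of the same chromosome, 12830097 to 12930040, was at 2.70, 2.64 and 2.56 against 3.23 and 3.43 (-0.36, adjusted p 0.00663 to 0.0196, limma). Here the call on both bins held only with long-term 2, long-term 3 and both early libraries in the fit, the mean difference ranging from -0.39 to -0.33 without one of them.

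In 2 stretches, the early and long-term levels of Ctrl were met in the opposite order by Tet iTKO. Gm15446 and Zfp932, zinc-finger genes on chromosome 5, 109925011 to 110024925, read 1.20, 1.21 and 1.25 in long-term Ctrl and 0.875 and 0.889 in early Ctrl (0.45, adjusted p 3.40e-07 to 0.00500, limma). In Tet iTKO the early mean was 1.19 and the long-term mean 0.952 ± 0.0668 (SD, n = 3), a log2 difference of -0.34 with 1 bin called. A gene-free stretch of chromosome 6, 130815234 to 131015180, read 0.963, 1.00 and 0.98 in long-term and 1.27 and 1.30 in early Ctrl (-0.41, adjusted p 1.86e-06 to 0.0135, limma), and 1.28 ± 0.0677 (SD, n = 3) against an early mean of 1.01 in Tet iTKO (0.32, 2 bins called). Both stretches fell to 1 called bin in Ctrl without either early library, with mean differences of 0.45 and 0.46 on chromosome 5 and of -0.42 and -0.41 on chromosome 6.

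**Figure D3:**
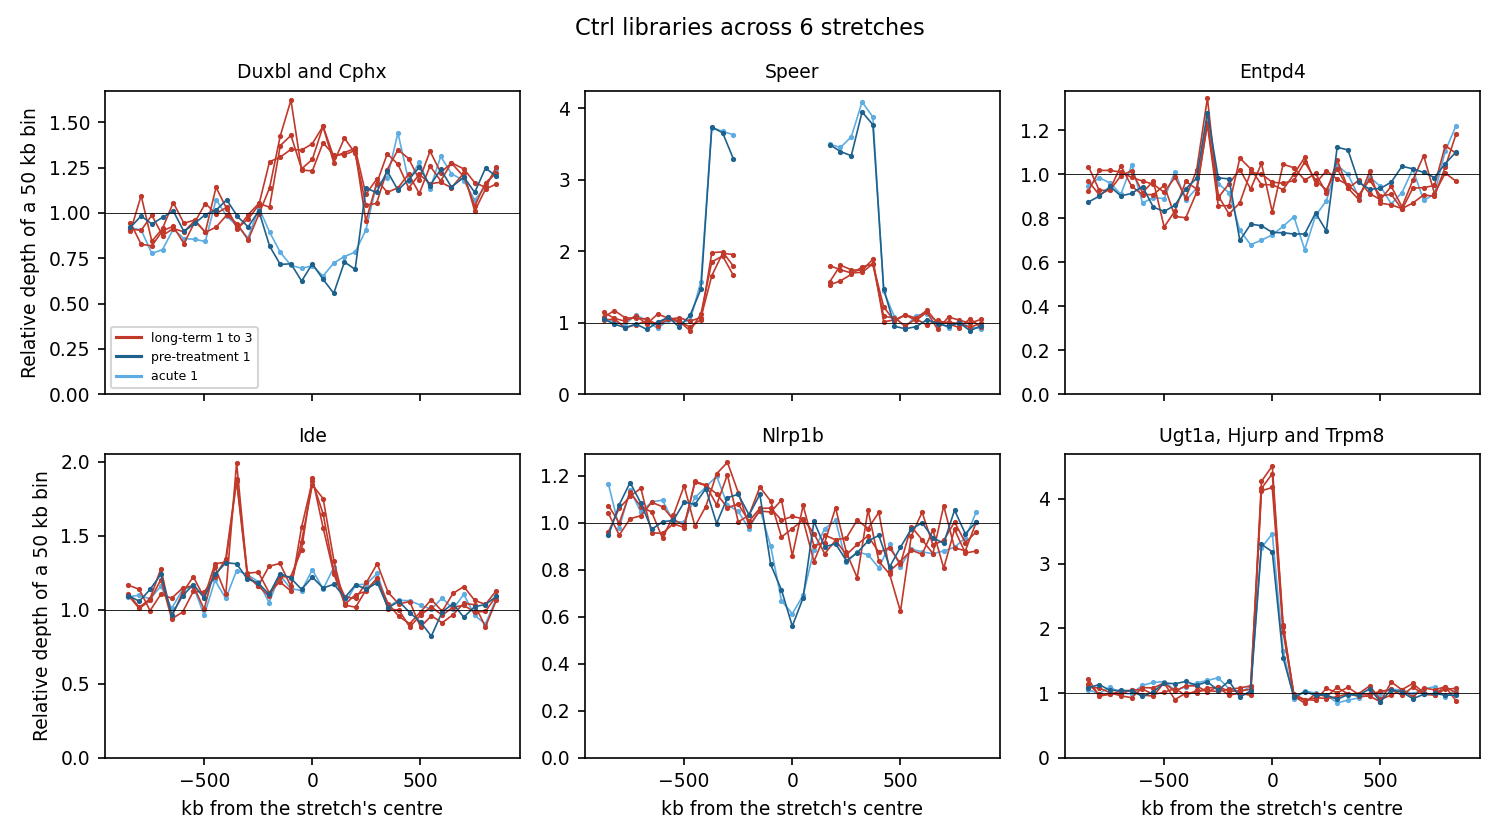
Relative depth (y axis, library's median autosomal bin = 1) of 50 kb bins around selected stretches (x axis, kb from the centre of the stretch), with 1 line for each Ctrl library and lines broken where no bin is given. The 3 long-term lines run together and apart from both early lines inside each stretch, and the lines meet on either side.

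Among single bins, all named after their values were seen, the largest difference lay in an olfactory receptor cluster. The bin of Olfr1431 and Olfr1555-ps1 on chromosome 19, 12165378 to 12215393, read 1.08, 1.19 and 1.17 in long-term and 0.641 and 0.609 in early libraries (0.85 ± 0.0814, SE, adjusted p 2.15e-19, limma). On chromosome 6, the bin of Klra3 and Klra1, natural killer cell receptor genes of the Ly49 family, read 0.945, 1.06 and 0.827 against 0.661 and 0.672 (0.46 ± 0.0820, SE, adjusted p 6.32e-05, limma). A bin inside Nlgn1, a neuronal adhesion gene on chromosome 3, read 0.81, 0.865 and 0.876 against 0.588 and 0.623 (0.46, adjusted p 4.79e-05, limma). These bins and that of Btaf1 were the 4 of 19 single bins called whichever library was left out. The Klra8 bin, at 0.942, 0.969 and 0.892 against 0.645 and 0.802, differed by 0.34 (adjusted p 0.0287, limma), but by 0.20 without the pre-treatment library (adjusted p 0.911), and it was also lost without long-term 1 or long-term 2. The single bins as a whole had a median size of 0.34, and 16 of 19 were higher. All 9 called bins of chromosome 6 lay at least 10.4 Mb distal of the Gt(ROSA)26Sor reporter locus, whose own bin differed by 0.06 and was not called.

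Summed over 500 kb windows, 25 of 4807 were called (0.52%, limma), 18 higher (0.374%) and 7 lower (0.146%). In 24 of them the groups did not overlap, as in 22.7% of all windows. The sizes ran from 0.10 to 0.68. Of the 10 windows with the largest differences, 9 held all or part of a stretch already described. The largest were the distal Speer4 window of chromosome 5, at log2 values of 0.39, 0.42 and 0.42 in long-term and 1.06 and 1.11 in early libraries (-0.68, adjusted p 2.39e-21, limma), and the distal Duxbl window of chromosome 14, at 0.31, 0.29 and 0.32 against -0.23 and -0.15 (0.49, adjusted p 1.07e-16, limma). The count of called windows fell to 11 without long-term 2, 16 without long-term 3, 15 without the pre-treatment and 12 without the acute library.

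The remaining one of these windows rested on a single early library. On chromosome 12, 98513637 to 99013993, with Kcnk10, Spata7, Ptpn21, Zc3h14, Eml5 and Ttc8, the log2 values were 0.09, 0.11 and 0.06 in long-term libraries, 0.10 in the pre-treatment and 0.47 in the acute library. The groups overlapped, and the window's difference of -0.20 (adjusted p 0.0422, limma) became -0.01 without the acute library (adjusted p 0.974) and -0.38 without the pre-treatment library. Within the window the acute library read 1.26 to 1.61 over 10 bins, a mean of 1.42, and lay above all 4 other Ctrl libraries in 10 of 10 bins. The means of the other 10 libraries of the series were 1.05 to 1.14. None of these bins was called one by one. No long-term clone differed by 0.25 or more from both other clones in any of the 4807 windows, and this window was the only one in which the early libraries differed from each other by that much.

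By robust standard deviation, the spread between libraries was similar within and between groups. Robust standard deviations of the difference between a pair of libraries were 0.120 to 0.134 over bins within long-term Ctrl, 0.123 between the early libraries and 0.118 to 0.134 across the groups. Over windows they were 0.0389 to 0.0424, 0.0415 and 0.0404 to 0.0440. A chi-square of counts per degree of freedom, without GC correction, was 1.04 to 1.07 between long-term libraries, 1.08 between the early ones and 1.09 to 1.23 across. By this measure every pair across the groups differed more than every pair within them. Without the GC correction, the difference between groups followed GC content over windows (r = -0.50 across 4807 windows, which are not independent), and with it this became 0.02.

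The same contrast in Tet iTKO called 14 bins (0.0292%) and 6 windows (0.125%). Whether the contrast differed between the genotypes was tested as an interaction, which called 42 bins (0.0877%) and 17 windows (0.354%) (limma). Of the 68 Ctrl bins, 31 were among those called for a difference between genotypes and 37 were not, and the latter does not show that the genotypes changed alike. In Tet iTKO, the median difference was 0.01 over the bins higher in long-term Ctrl and -0.00 over the lower ones, beside -0.00 over all bins. Only the Nlgn1 bin was called in both genotypes in the same direction, at 0.46 in Ctrl and 0.55 in Tet iTKO (adjusted p 0.00484), with an interaction p of 0.998, and 3 bins were called in the opposite direction.

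**Figure D4:**
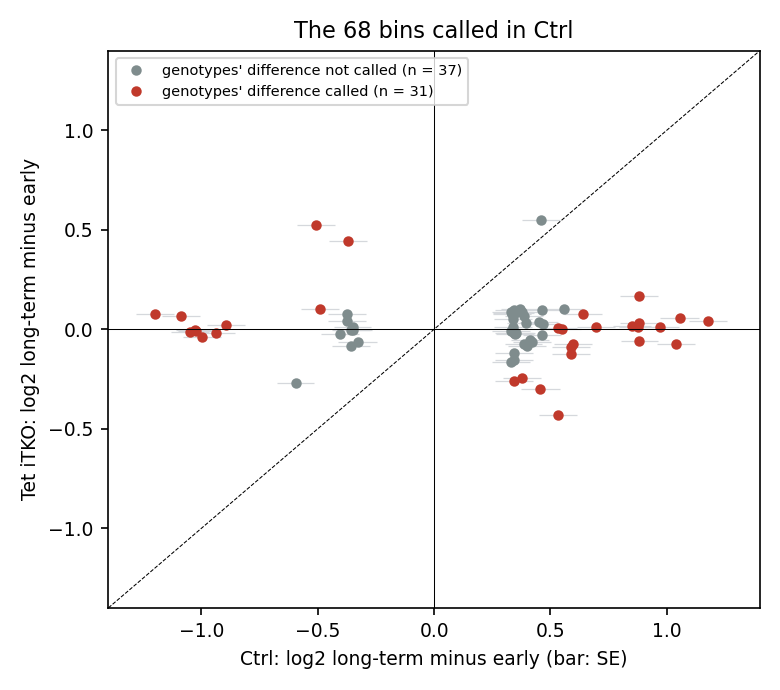
Long-term minus early difference in log2 relative depth in Ctrl (x axis, bars show SE) and in Tet iTKO (y axis) of the 68 bins called in Ctrl, coloured by whether the difference between the genotypes was called (31 bins) or not (37 bins). The Ctrl values are those that chose the bins, and most Tet iTKO values lie near 0.

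The level of the Tet iTKO libraries did not single out one Ctrl stage. In 6 stretches, those of Ugt1a, Cyp2a22, Nlrp1b, Naip6, Ide and the gene-free stretch of chromosome 13, all 5 Tet iTKO libraries lay nearer the long-term Ctrl mean. For Ide they read 1.62 to 1.70, and for Nlrp1b 0.994 to 1.03. In 4 stretches, those of Speer4, Vmn2r, Duxbl and Entpd4, all 5 lay nearer the early Ctrl mean, as at Duxbl (0.868 to 0.909) and Entpd4 (0.694 to 0.752). At Speer4 they lay beyond the early libraries, at 4.61 to 4.73. In the other 2 stretches they fell on both sides. The single Dnmt TKO library was lower than any Ctrl library at Duxbl (0.444), Entpd4 (0.461) and Nlrp1b (0.334), and higher at Naip6 (2.04). The early Ctrl mean lay between the long-term mean and Dnmt TKO in 8 of 12 stretches. The same held for 37 of the 68 called bins (54.4%), beside 37.9% of all tested bins.

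Called bins were rich in repeated sequence. The share of 50-base words found more than once had a median of 43.5% in called and 5.6% in all tested bins, and it was above 25% in 47 of 68 called bins (69.1%) against 3977 of 47907 tested (8.30%). Mean relative depth lay outside 0.8 to 1.2 in 21 of 68 (30.9%) against 2.75% of all. A protein-coding gene was missing from 16 of 68 (23.5%) against 41.8%. GC content was nearly the same, at 42.5% and 41.4%. These are descriptions, and the part that placement of reads among copies played in the differences was not tested.

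Gene families, chosen with earlier results of these data known, were examined through the bin that overlapped each member most. Of 2239 members tested in 23 families, 19 (0.849%) were called, beside 0.142% of all bins, and members of one array can share a bin. Some lists, such as Duxbl, Entpd4 and the single gene Ide, are themselves loci called here. The share of genes therefore cannot serve as a test against the share of bins. Duxbl had 3 of 3 called higher, Entpd4 2 of 2, and Speer 3 of 10 lower. In larger families few members were called: 2 of 1127 olfactory receptor genes, which shared 1 bin, 1 of 121 Vmn2r genes and 1 of 384 zinc-finger (Zfp) genes were called, all higher. Of 22 Ugt genes 2 were called higher, Ugt1a1 and Ugt1a2, and of 19 Klra, Klrb and Klrc genes 2 were, Klra3 and Klra8. No member was called in 12 families, such as Vmn1r (largest differences in the bin of Vmn1r188 and Vmn1r189, at 0.30, adjusted p 0.151) and the Zscan4 and Tcstv genes of the 2-cell-like state (Zscan4c 0.12, adjusted p 0.976).

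Single genes chosen for their roles gave no call. They came from lists for DNA methylation, the subcortical maternal complex, pluripotency, chromosome segregation, growth control, long fragile-site genes and engineered or strain loci. Of 83, 0 were called in their own bin (limma), beside 0.142% of all bins, so that the count sets these genes apart in no way. Their median difference was -0.01, with a range of -0.20 to 0.18, beside -0.000199 over all bins. Tet1, Tet2 and Tet3, which encode the 5-methylcytosine dioxygenases and were not floxed in Ctrl, differed by 0.05, -0.06 and -0.08, and the methyltransferase genes Dnmt1, Dnmt3a and Dnmt3b by 0.06, 0.07 and 0.04. Khdc3 and Ooep, of the subcortical maternal complex, differed by 0.05 and 0.11, and the spindle checkpoint gene Mad2l1 by -0.20. None of these passed the test. One of 20 bins of Wwox, a long gene at a fragile site, was called, at 0.723, 0.721 and 0.819 in long-term and 0.992 and 0.977 in early libraries (-0.36, adjusted p 0.0135, limma), and it was not called without long-term 1 (-0.33), long-term 2 (-0.33), the pre-treatment (-0.36) or the acute library (-0.36).

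Whole autosomes differed little, and the design could not test such differences at the usual threshold. The median over an autosome's windows differed between the groups by -0.01 to 0.02 on the log2 scale, at most 1.11% of depth, on chromosome 6. With 3 libraries against 2 there are 10 assignments, and an exact two-sided permutation test cannot give a p below 0.1. That value was reached by 2 of 19 autosomes, 6 and 9. The groups did not overlap on these, nor on chromosome 10 (exact permutation p 0.2). On chromosome 6 the log2 values were 0.00737, 0.00856 and 0.00929 in long-term and -0.00871 and -0.00630 in early libraries, and on chromosome 9 the long-term libraries were lower (-0.01). The smallest adjusted p was 0.95. Chromosomes 1, 8 and 11 differed by 0.002, -0.001 and -0.001 (exact p 0.4, 0.8 and 1.0). The Dnmt TKO library, by comparison, was at 0.42 on chromosome 8. A gain in a small share of the cells would not show at this scale.

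The X chromosome was at 0.568, 0.572 and 0.570 in long-term 1 to 3 (0.570 ± 0.00203, SD, n = 3), 0.560 in the pre-treatment and 0.569 in the acute library, near 0.5 of the autosomal median in both groups. Long-term exceeded early Ctrl by 0.00493, with p = 0.3 in a two-sided exact permutation test, and by 0.000657 without the pre-treatment and 0.00920 without the acute library. The Y chromosome, by contrast, was at 0.465 ± 0.00364 (SD, n = 3) in long-term and at the values near 0.03 given above in early libraries. This gap of 0.436 had p = 0.1 in the exact permutation test, which is the smallest this design allows. The Tet iTKO libraries showed the same division by stage, with means of 0.554 in long-term and 0.0342 in early libraries, and the Dnmt TKO library was at 0.457.

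**Figure D5:**
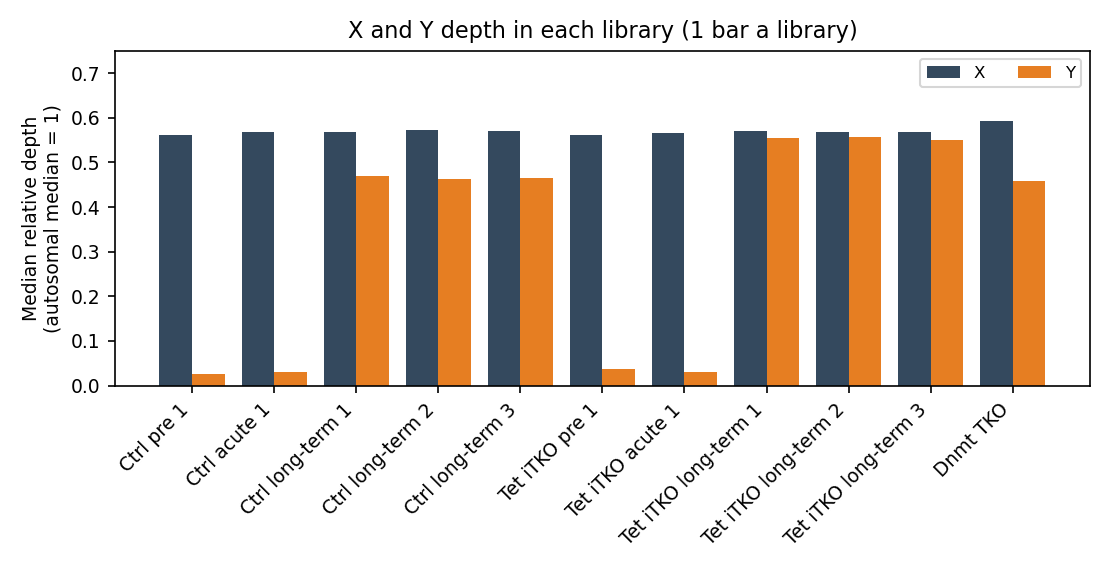
Median relative depth of the X and Y chromosomes (y axis, autosomal median = 1) in each of the 11 libraries (x axis, 1 bar for each chromosome and library). X bars are at 0.560 to 0.592 in all libraries, whereas Y bars are near 0.03 in the early Ctrl and Tet iTKO libraries and at 0.457 or above in the rest.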

How the data were processed

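Genomic DNA of 11 sorted mESC populations was sequenced without PCR amplification. Per the methods, the authors used BWA-mem for alignment to mm10, and Picard served to take out optical duplicates. BSMAP 2.74v stands in the submitters' processing notes, with no role given for this assay. The authors deposited, per bin of about 50 kb, the mean coverage (a signal) and its log2, which equals log2 of the coverage to within 4.05e-05. Of 3432 bin sums under 400 bases, 95.4% were multiples of 50, and reads per bin assume that length. The methods give a longer minimum read length, with which the reads per bin would be fewer.

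From the coverage, relative depth was computed as bin over autosomal median, log2(relative depth + 0.01) was corrected for GC by lowess (span 0.3, 3 iterations) in each library, and groups were compared with limma 3.58.1 (R 4.3.3, 2-sided, Benjamini-Hochberg, adjusted p under 0.05). Of 47924 autosomal bins, 17 with a mean relative depth outside 0.25 to 4 were left out. Windows of 500 kb needed at least 250 kb of bins. Autosomes, X and Y were tested by exact permutation over all assignments of the libraries. GC and word counts came from the GRCm38 sequence, genes from GENCODE M21. Python 3.11.15, numpy 2.4.6, pandas 2.3.3, statsmodels 0.14.6, numba 0.67.0 and matplotlib 3.10.9 were used.

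Named were stretches of at least 2 called bins with up to 6 overlapping genes each, the 10 called windows that differed most, chromosomes 1, 8 and 11, called members of the single-gene lists and the 2 members of each family that differed most. More genes are named in places, for the array they belong to. Members and lists were chosen with earlier results of these data known. On simulated data, 64% of bins changed by 0.35 and 100% of those changed by 0.5 or more were recovered, with 5 of 47708 unchanged bins called. Windows changed by 0.15 or more were all recovered, with 9 of 4607 unchanged windows called. All simulated libraries shared the mean Ctrl profile and had counting noise alone, without GC differences between libraries. These rates therefore need not hold for the real libraries. Alternatives tried were a trended and robust fit, a spread shared with Tet iTKO, each library left out, no GC correction, other depth filters, a pseudocount of 0.1, mean centring and 1 Mb windows.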

Additional observations from a re-analysis of the deposited data

Results flagged for a closer look

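The stage contrast differed between Ctrl and Tet iTKO by the interaction test (limma, adjusted p under 0.05) in 42 bins and 17 windows. Values below are the log2 difference of Ctrl minus that of Tet iTKO, as a mean over the bins of a stretch or for a window. Of the stretches, 8 held such bins: Speer4 at -0.93, Gm15446 and Zfp932 at 0.79, the gene-free stretch of chromosome 6 at -0.73, Cyp2a22 at 0.41, Nlrp1b at 0.62, Duxbl at 0.89, Entpd4 at 0.47 and Ide at 0.52. In that order, the interaction was called in 9 of 10, 2 of 2, 2 of 3, 1 of 2, 2 of 3, 8 of 9, 1 of 7 and 2 of 3 of their bins. Neither the bin of Nlrp1b nor that of Cyp2a22 was among them (interaction adjusted p 0.201 and 0.951, limma). Of the 10 windows that differed most in Ctrl, 8 were called. They were both Speer4 windows at -0.67 and -0.42, both Duxbl windows at 0.46 and 0.31 and the Ugt1a window at 0.19. The others were the Nlrp1b window at 0.22, the Ide window at 0.18 and the window with the gene-free stretch of chromosome 13 at -0.21. In the Speer4 and Ide stretches the Tet iTKO libraries of both stages sat together, at 4.61 to 4.73 and 1.62 to 1.70.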

How the results depend on the processing

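Most results kept their direction and their side of the threshold under the alternatives, and no direction reversed. The 68 bins called became 44 to 53 with 1 library left out and 50 to 67 under the other settings, apart from 49 with the narrower depth filter. The 25 windows called became 14 with a spread shared with Tet iTKO, 11 to 17 with 1 library left out, and 17 to 31 otherwise, the lowest with windows of 1 Mb. With 1 library left out, the Y difference was 0.434 to 0.439, the X difference 0.000657 to 0.00920 and the largest autosome difference 0.0147 to 0.0171. The Vmn2r stretch also fell below 2 called bins with the trended and robust fit and with the shared spread (0.36 in both), and the gene-free stretch of chromosome 13 without the GC correction (-0.34). Of the 10 largest windows, 9 stayed called under every alternative run on them. The exception was the chromosome 12 window, lost under 6 of them. With the narrower depth filter no bin of the Ugt1a stretch or of the gene-free stretch of chromosome 13 could be tested.

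The replicate numbers of Ctrl and Tet iTKO clones did not pair them: deviations of same-numbered clones correlated at 0.000135 to 0.00288 over bins and -0.0068 to 0.0244 over windows. With the number as a replicate block, the interaction called 42 bins and 14 windows, against 42 and 17 without it.

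At this depth, a difference of 0.35 in a single bin was recovered in 64% of cases simulated with counting noise alone. Changes of that size or smaller in single bins can thus go undetected.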
